A study of Homo sapiens with 32 samples.

Results

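Distal sites shared by SP1 and YY1 were defined in the peak summits of ChIP-seq samples from HEK293T cells, a human embryonic kidney line. The sites were chosen by peak position alone: an SP1 summit on chromosomes 1 to 22 or X had to lie more than 2000 bp from the 5′ end of every protein-coding gene of GENCODE 44, with a YY1 summit within 100 bp and no summit of ZNF143 or NRF1 within 100 bp. Of 126181 SP1 summits on these chromosomes, 99042 were distal by this distance, and 32738 of them (33.1%) met the whole rule. They lay in 27356 SP1 peaks, of which 23578 held 1 such summit and 3778 held 2 or more. A further 5991 distal SP1 summits had a YY1 summit but were left out for ZNF143 (2651 summits), NRF1 (4304) or both (964).

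All samples came from 1 clone, HEK_CloneZD29, in which ZNF143 carries an inducible degron tag (dTAG) with an HA epitope. SP1 and YY1 were each precipitated in 4 untreated samples and in 4 samples given 50 nM dTAGV-1, the degrader, for 30 minutes. NRF1 was precipitated in 4 untreated and 4 samples so treated, and ZNF143, by its HA tag, in 2 and 2. Mock samples numbered 2 untreated and 2 treated. The ZNF143 list, by which the rule bars sites, thus also covers cells given the degrader of ZNF143. The authors deposited 1 list of summits per antibody, with no value per sample, so that untreated and treated cells could not be compared and no value below has a replicate error. The clone has no untagged counterpart among these samples. Intervals given below cover counting error only, and sites of 1 cell clone are not replicates of a condition.

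SP1 is a zinc finger activator that binds GC boxes, mostly in promoters. YY1 is a zinc finger protein that activates or represses its targets, binds at promoters and enhancers, and can pair with itself to bring such elements together. CTCF, which was not precipitated here, stops the cohesin ring at loop anchors and recognises a long motif that has a direction. Distal binding of activators marks enhancers in many cell types, and some transposons, the L1 family among them, carry protein binding sites of their own.

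The sites that stood highest in both lists are shown first, because 5 of the 6 lie in 2 non-coding genes of the X chromosome. Sites were ranked by the lower of their percentiles in the SP1 and the YY1 list, with 1 summit per peak, and 1 site ranked above the last of them is not printed. Each line gives the forward strand of hg38 from 50 bases before to 50 bases after the SP1 summit. Capitals mark exact matches to the motifs searched on both strands, here YY1 (GCCATNTT), the SP1 GC box (GGGCGG), the E-box (CACGTG) and SOX (AACAATG).
XIST exon, chrX:73851150-73851250: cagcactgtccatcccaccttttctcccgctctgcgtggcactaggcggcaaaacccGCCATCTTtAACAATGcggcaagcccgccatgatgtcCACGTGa
FIRRE intron, chrX:131792421-131792521: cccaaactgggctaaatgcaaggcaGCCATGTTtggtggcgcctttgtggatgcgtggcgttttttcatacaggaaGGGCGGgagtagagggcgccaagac
FIRRE intron, chrX:131752513-131752613: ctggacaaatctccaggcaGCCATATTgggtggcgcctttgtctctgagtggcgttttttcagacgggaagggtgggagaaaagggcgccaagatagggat
FIRRE intron, chrX:131704246-131704346: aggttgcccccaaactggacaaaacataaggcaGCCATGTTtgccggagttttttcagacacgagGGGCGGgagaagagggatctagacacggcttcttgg
FIRRE intron, chrX:131762814-131762914: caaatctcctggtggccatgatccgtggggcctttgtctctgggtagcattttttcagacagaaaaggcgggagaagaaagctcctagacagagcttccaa
Intron of ENSG00000286330, chr13:74325154-74325254: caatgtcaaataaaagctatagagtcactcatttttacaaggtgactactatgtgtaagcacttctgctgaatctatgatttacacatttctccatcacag

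The XIST site, in an exon of the RNA that coats the inactive X chromosome, scored 1042 in the SP1 list and 4212 in the YY1 list. These scores are the authors' own and are −log10 of a p or q value. The 4 FIRRE sites lay in introns of another X-linked non-coding RNA gene, known for its part in nuclear organisation, and scored 949, 884.5, 846.6 and 786.6 for SP1 and 1534, 1685, 812.6 and 1387 for YY1, in the order printed. The longest run of bases shared by a pair of these windows was 16, around the YY1 motif of those at 131792471 and 131704296. In the other pairs it was 8 to 14 bases. The site on chromosome 13, 190.8 kb upstream of KLF12, a repressor of the family to which SP1 is related, scored 2324 and 614.3 and held none of the 20 motifs searched.

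The highest sites with the CTCF core motif and with the AP-1 motif (TGANTCA, bound by FOS and JUN dimers) are shown for contrast, with only that motif in capitals.
CTCF, intergenic, 47.63 kb downstream of the 5′ end of FAM240B, chr9:38672453-38672553: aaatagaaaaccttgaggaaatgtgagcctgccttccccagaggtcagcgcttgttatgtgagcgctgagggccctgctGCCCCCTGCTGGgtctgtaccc
CTCF, intron of a lncRNA gene, 88.3 kb upstream of RPRML, chr17:47067504-47067604: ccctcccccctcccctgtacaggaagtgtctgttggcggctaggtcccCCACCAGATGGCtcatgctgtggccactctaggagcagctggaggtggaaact
AP-1, intron of LINC02615, 104.5 kb upstream of PGRMC2, chr4:128393309-128393409: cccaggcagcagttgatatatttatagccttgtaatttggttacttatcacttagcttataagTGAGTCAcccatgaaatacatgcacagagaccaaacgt
AP-1, intergenic, 575.4 kb downstream of the 5′ end of FRK, chr6:115485454-115485554: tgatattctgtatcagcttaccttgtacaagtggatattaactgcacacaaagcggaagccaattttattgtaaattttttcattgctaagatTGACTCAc

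The CTCF sites scored 655.4 and 169.1 for SP1 and 136.1 and 106.1 for YY1, and that on chromosome 17 lay within 500 bp of an annotated transcript's 5′ end. The AP-1 sites scored higher for SP1, 3141 and 1159, and 348.1 and 342.6 for YY1. Over all shared sites the SP1 order was the same and the YY1 order the opposite, as described with the scores below.

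Both X-linked genes held many shared sites. XIST (ENSG00000229807.13, chrX:73820649-73852723) held 27 among its 53 distal SP1 summits, all 27 in 1 SP1 peak, in a gene of 32.08 kb. That was 84.18 per 100 kb, the highest density of the non-coding genes with at least 10 shared sites. Their SP1 scores ran from 18.37 to 1042 with a median of 204.6, and their YY1 scores from 2.705 to 4212 with a median of 32.02. Only 1 of the 27 held the YY1 motif, the site printed above, and none held the GC box. FIRRE (ENSG00000213468.7, chrX:131688779-131830862) held 23 sites in 19 peaks, 16.19 per 100 kb, among 72 distal SP1 summits. Over all distal SP1 summits 33.1% met the rule. The FIRRE share was near this value and the XIST share above it. The FIRRE sites had a median SP1 score of 457.3 (4.563 to 997.9) and a median YY1 score of 365.9 (3.664 to 1685). The YY1 motif was present at 6 of the 23 and the GC box at 10. HOXA-AS2, with 13 sites among 21 distal SP1 summits and 49.01 per 100 kb, and HOXB-AS3, with 18 among 39 and 31.7, came next after XIST in density. These 4 genes were picked out after their values were seen. Copy number in these cells was not tested.

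The paired summits lay close together. The median distance from the SP1 to the nearest YY1 summit was 27 bp (quartiles 12 and 51 bp), 47.1% of the sites had it within 25 bp, and 349 sites had both summits on the same base. The rule fixes the upper limit of this distance. Just inside that limit, at 100 bp, were sites nearest to GOLGA4 and TP53BP2, with SP1 scores of 421.8 and 274.9. Just outside it, 1 bp further apart, were summits nearest to MCTS2 and IL26, with 1017 and 674.8. Around the limit of 2000 bp, the closest sites inside were 2001 bp from ZHX2 and 2002 bp from KIF18A, and the closest outside were 1998 bp from TOB2 and from ENSG00000285976. Although summits of the other factors were barred within 100 bp, 5460 sites (16.7%) had an NRF1 summit beyond that and within 500 bp and 766 (2.34%) a ZNF143 summit.

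Shared sites were the stronger part of the distal SP1 list. Their median SP1 score was 30.3 (quartiles 10.6 and 93.2), against 7.38 (3.93 and 15.7) for the distal SP1 summits with no YY1, ZNF143 or NRF1 summit within 100 bp, called SP1-alone summits here, and 14.05 for the whole list. On the YY1 side the median was 15.2 (7.28 and 32.2) for YY1 summits with an SP1 partner against 7.66 (3.95 and 16.3) for YY1-alone summits, but 15.01 for the whole list. The scores come from the peak calls that chose the sites, so these values are a description without a test. Over the 27356 SP1 peaks, Spearman's rho between the SP1 and the YY1 score was 0.44, with sites that share their libraries, depth and chromatin. Of the sites, 39.5% were in the top 50% of both lists and 428 in the top 10% of both. Distal YY1 binding was also often shared: 32944 of 77968 distal YY1 summits (42.2%) met the matching rule.

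**Figure D1:**
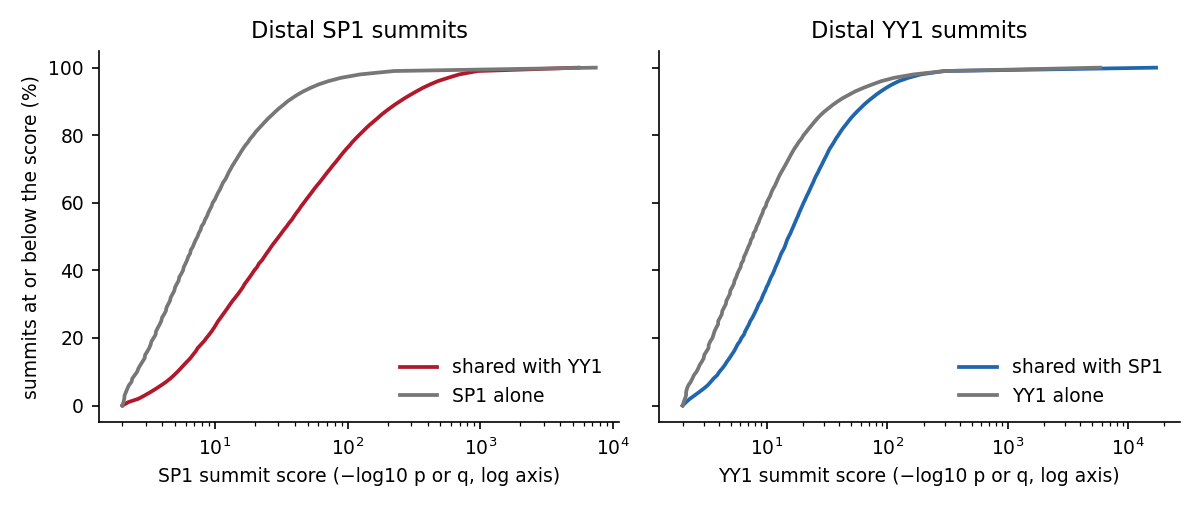
Cumulative share of distal summits (y axis, percent) by score (x axis, −log10 p or q on a log axis). The left panel plots 32738 shared SP1 summits, with a median of 30.3, to the right of 57226 SP1-alone summits, with 7.38; the right panel plots YY1 summits with an SP1 partner, with a median of 15.2, and 36787 YY1-alone summits, with 7.66.

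Few shared sites held the motif of either protein. Within 50 bp of the SP1 summit (1 summit per peak, the highest scoring), 4.92% of the 27356 windows held the GC box (95% Wilson interval 4.67 to 5.18) and 2.23% the YY1 motif (2.07 to 2.42). One or the other was present at 7.03%, and both at 33 windows (0.121%). Of the 20 motifs searched, at least 1 was present at 35.1% of the summits and in 20.7% of windows of the same length lying 400 bp away on the side of lower coordinates. So 17765 sites held none of them. They had a median SP1 score of 33.7 and a median YY1 score of 15.2, close to those of all shared sites. A window without these letters may still hold a weaker match.

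Against these flanks, 13 motifs were more frequent at the summits and 4 less frequent (two-sided exact McNemar test, Benjamini-Hochberg adjusted over 20 motifs, threshold 0.05). The CTCF core motif, 12 bases long, had the highest ratio. It was present at 843 windows (3.08%, 2.88 to 3.29) against 16 flanks (0.0585%), 52.7 times as often (exact test, adjusted p = 1.95e-226). Over all 99042 distal SP1 summits, counted singly rather than 1 per peak and with the shared sites among them, its share was 1.34%. The motif of the GATA factors, AGATAAG, was present at 4.78% against 1.36% (exact test, adjusted p = 9.45e-125). AP-1 was the most frequent of the 20, at 6.23% against 2.91% (exact test, adjusted p = 1.39e-78), and the GC box came to 4.92% against 2.57% (exact test, adjusted p = 1.54e-52). Each window has an SP1 summit by the rule and its flank need not. The choice of sites thus favoured a higher GC box share at summits in advance, and its value is a description. The GC box is among the 13 more frequent motifs. The E-box, the site of MYC, MAX and USF proteins, was present at 1.82% against 0.98%. The rare CRE (TGACGTCA, for CREB and ATF proteins) and the palindrome of the NFI proteins were present at 0.219% and 0.175% of summits against 0.0219% and 0.011% of flanks. Shares at the RUNX (TGTGGTT), SOX and REST (TTCAGCACC) motifs did not pass the test, with ratios of 1.04, 1.07 and 1.68. Over the same 99042 summits the shares of GATA, AP-1 and the GC box were 4.279%, 5.577% and 5.244%. These were near those of the shared sites, which were counted with 1 summit per peak.

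The values of the forkhead motif (FOX, TGTTTAC), the YY1 motif and RUNX depended on windows from 1 family of transposons, described below. FOX was present at 5.85% of summits and 1.60% of flanks, a ratio of 3.65 that became 1.94 without the windows on that family. The YY1 motif was less frequent at summits than in flanks, 2.23% against 3.14%, with a ratio of 0.71 (exact test, adjusted p = 1.31e-10). Without the family the order was the opposite, 2.29% against 1.87% and a ratio of 1.23 (exact test, adjusted p = 0.00105), and flanks at 1000 bp gave a ratio of 1.10. Each site has a YY1 summit by the rule and its flank need not, so the choice of sites favoured a higher YY1 motif share at summits. RUNX passed without the family, with 2.21% against 1.68% and a ratio of 1.32 (exact test, adjusted p = 2.2e-05). The octamer of the POU factors (ATGCAAAT) was the lowest of the others, with 0.307% at summits against 0.702%. Most of the NRF1 site (GCATGCGC) and a part of the ZNF143 site (ACTACAA), whose summits the rule bars, had ratios of 0.51 and 0.78. The rule does not bar those summits in the flanks, so the choice of sites favoured this direction in advance. Both motifs are among the less frequent ones counted above.

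**Figure D2:**
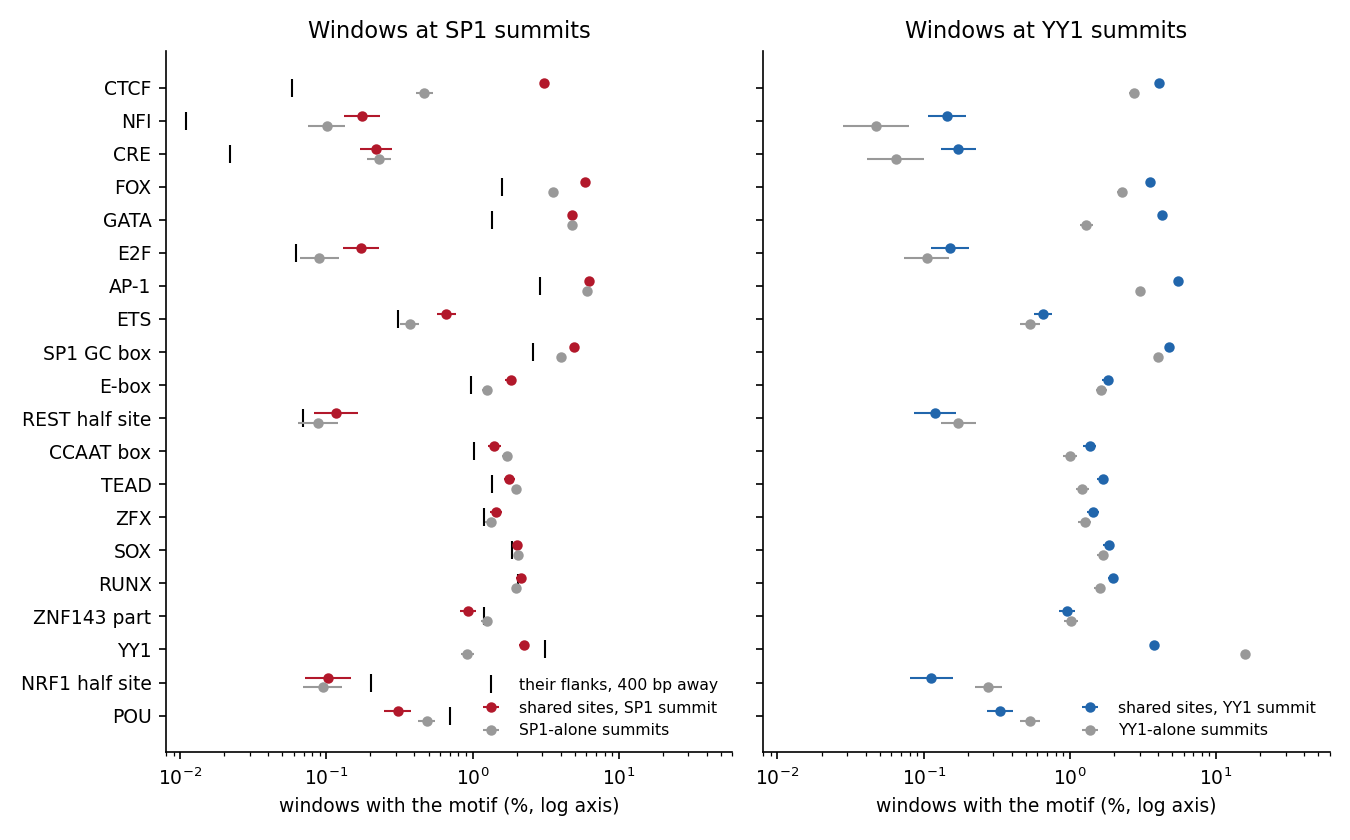
Share of windows within 50 bp of a summit with each of the 20 motifs (x axis, percent on a log axis), with 95% Wilson intervals as bars. On the left, shared sites at the SP1 summit (27356 windows) stand beside their flanks (ticks) and SP1-alone summits (44640); on the right, shared sites at the YY1 summit (28331) stand beside YY1-alone summits (29596). CTCF lies far from its flank tick at left, and YY1 is far lower at shared than at YY1-alone summits at right.

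YY1 summits with an SP1 partner differed most from other distal YY1 summits in the YY1 motif itself. It was present within 50 bp of 3.78% of the 28331 shared YY1 peaks and of 15.7% of the 29596 YY1-alone peaks, a difference of -11.9 percentage points (95% Newcombe interval -12.4 to -11.4; two-sided Fisher exact test, adjusted over 40 motif tests, p = 4e-289). GATA and AP-1 went the other way. GATA was present at 4.27% against 1.30% (2.97 points, 2.71 to 3.25, exact test, adjusted p = 2.03e-109), and AP-1 at 5.52% against 3.02% (2.50 points, 2.17 to 2.83, exact test, adjusted p = 8.69e-50). FOX was 1.26 points higher and the GC box 0.74 points higher, but the GC box was -0.35 points in the top 50% of each list and -4.70 with equal numbers of top summits. Shared YY1 summits have an SP1 summit by the rule and YY1-alone summits have none, so the choice of sites favoured a higher GC box share. In all, 10 motifs, the GC box among them, were more frequent than at YY1-alone summits and 3 less frequent. CTCF was among the first, at 4.08% against 2.73% (1.35 points, 1.05 to 1.64), but this order changed with the score. It was 0.22 points with scores of at least 5, which did not pass the test, and -4.24 points in the top 50% of each list.

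Against SP1-alone summits, CTCF stood out. It was present at 3.08% of shared sites and 0.466% of SP1-alone summits, 2.62 points higher (2.41 to 2.84, exact test, adjusted p = 1.01e-173). With each list limited to its 16165 highest scores, which left 1358 shared sites, the difference was 0.057 points and did not pass. The YY1 motif was 1.31 points higher at shared sites (2.23% against 0.923%, exact test, adjusted p = 1.86e-44), the GC box 0.90, the E-box 0.56 and the ETS site (CCGGAAG) 0.29 points higher. Shared sites have a YY1 summit by the rule and SP1-alone summits have none. The choice of sites thus favoured the direction of the YY1 motif difference in advance, and its value is a description. With the equal numbers of top summits the GC box was -1.59 and the E-box -0.14 points. The FOX difference of 2.30 points became -0.11 points (-0.37 to 0.17, not passing) without the transposon family. AP-1 and GATA did not pass the test. AP-1 differed by 0.12 points (-0.24 to 0.48) and GATA by -0.02 points (-0.34 to 0.30). In the top 50% of each list AP-1 was -1.54 points and GATA -0.89 points, and the GATA difference passed there. In all, 8 motifs, the YY1 motif among them, were more frequent than at SP1-alone summits and 3 less frequent.

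Motif shares changed with the score in ways that differed between the SP1 and the YY1 list. Sites with GATA had a median SP1 score of 73.2 and a median YY1 score of 15.8, and sites with AP-1 had 51.6 and 14.2. Sites with CTCF had a lower median for SP1, 10.5, and a higher one for YY1, 23.6. Ranked by SP1 score, in 5 bins of equal size, CTCF was present at 6.56% of the lowest bin and at 5.61%, 2.58%, 0.439% and 0.219% of the following ones. GATA went from 1.63% in the lowest to 7.69% in the highest bin, and AP-1 from 4.13% to 7.95%. The GC box had no steady trend, with 4.295% in the lowest and 4.42% in the highest bin. The YY1 motif went from 3.455% to 1.79%. Ranked by YY1 score the picture differed. CTCF was at its lowest in the lowest bin (0.64%) and at its highest in bin 4 (4.95%). The YY1 motif went from 1.46% to 4.17%, and the GC box from 3.13% to 7.40%. GATA was near level, with 5.01% in the lowest and 4.55% in the highest bin, and AP-1 went from 6.78% to 5.32%. Of the 843 sites with CTCF, 56 also held the GC box (6.64%), 22 AP-1 (2.61%), 16 the E-box (1.90%), 15 the YY1 motif (1.78%), 6 GATA (0.712%) and 5 FOX (0.593%).

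**Figure D3:**
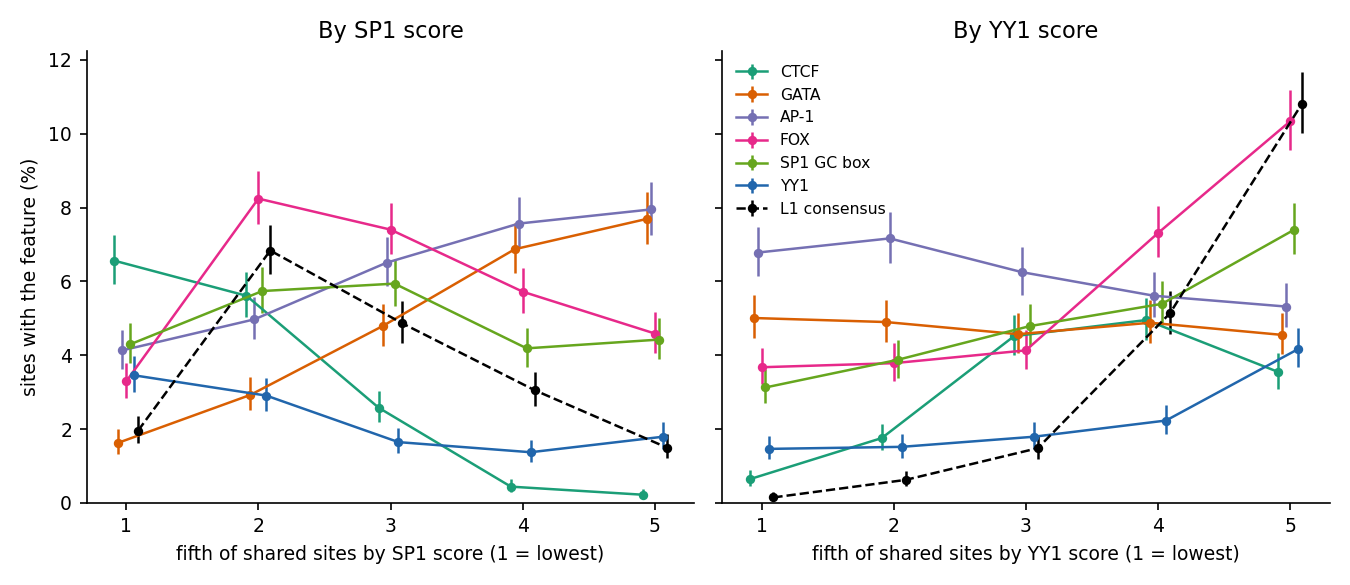
Share of shared sites (y axis, percent, 95% Wilson intervals) with a motif or on the L1 consensus, in 5 equal bins of 27356 peaks by SP1 score at left and YY1 score at right. By SP1 score CTCF declines from 6.56% to 0.219% while GATA climbs from 1.63% to 7.69%; by YY1 score the L1 consensus climbs from 0.146% to 10.8%.

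Summits near the CTCF motif lay mostly on 1 side of it. Among 842 sites with exactly 1 match, 548 SP1 summits were downstream of the centre of the motif, read along the strand on which the core motif was written, and 294 upstream (34.9% upstream, two-sided exact binomial test, adjusted over 4 tests, p = 3.1e-18). The YY1 summits at the same sites were downstream at 595 and upstream at 247 (29.3%, exact test, adjusted p = 2.67e-33). With 1 mismatch allowed, 2522 sites had a single match, and 35.2% of their SP1 and 30.8% of their YY1 summits were upstream. The median position was 11.5 bp downstream for SP1 (quartiles -8.5 and 27.5) and 13.5 bp for YY1 (-4.5 and 29.5). SP1 and YY1 summits were a median of 16 bp apart at sites with CTCF and 27 bp at sites with none of the 20 motifs. At 605 sites with 1 YY1 motif the SP1 summits did not pass the same test, with 306 downstream and 299 upstream (exact binomial p = 0.807). The YY1 summits there were upstream at 330 and downstream at 275 (exact test, adjusted p = 0.0374).

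**Figure D4:**
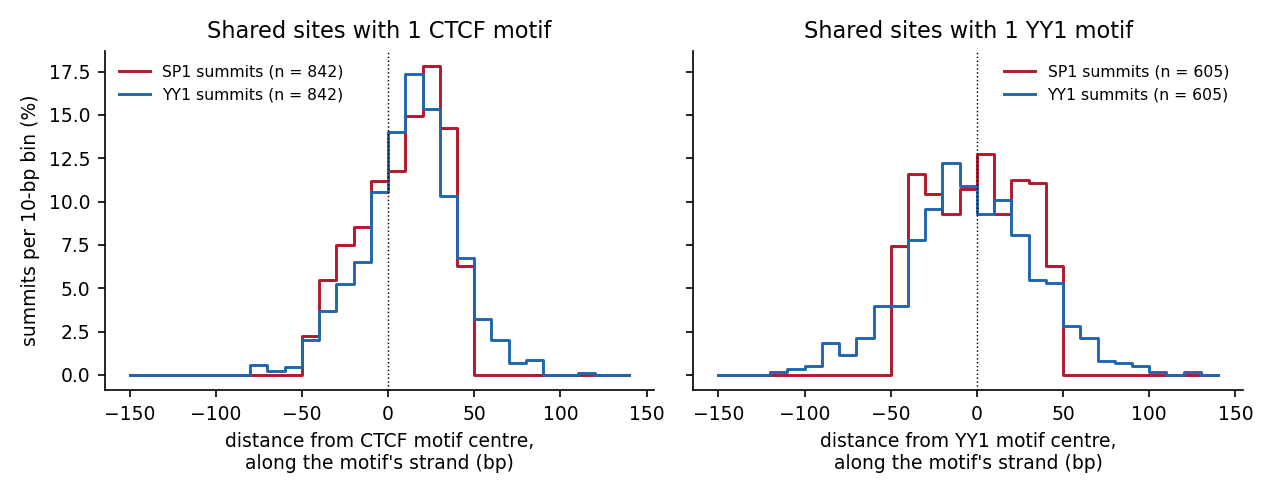
Position of SP1 and YY1 summits relative to the centre of the CTCF motif (left, 842 sites) and of the YY1 motif (right, 605 sites), in bp along the motif's strand, as percent of summits per 10-bp bin. Around CTCF both curves peak downstream, with medians of 11.5 and 13.5 bp; the SP1 curve ends at 50 bp because the motif was searched within 50 bp of the SP1 summit.

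A single repeated sequence lay under many of the shared sites with the FOX motif. The most frequent run of 24 bases in the windows of shared sites was present at 596 of them and is printed here because most SP1 summits on this sequence lay in or beside it. Capitals mark the first 5 letters of the GC box and of the YY1 motif, each of which it holds without the full motif.
L1 run, position 437 of the assembled sequence: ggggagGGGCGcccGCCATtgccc
Extended outward by majority, the run gave a consensus of 1652 bp. It was named L1, the only autonomous transposon still active in humans, from general knowledge of how that element begins. No L1 reference sequence or repeat annotation was compared, so the name was not tested. The consensus carries the YY1 motif at positions 17 to 24, a known feature of L1, and the FOX motif at 473 to 479. The sequence was found after the windows were examined, so its values are a description.

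Of the 27356 shared SP1 peaks, 996 (3.64%) had their summit on this consensus, against 232 of 44640 SP1-alone peaks (0.520%). On the YY1 side it was 999 of 28331 shared peaks (3.53%) and 1356 of 29596 YY1-alone peaks (4.58%). The SP1 summits formed 1 cluster: 957 of the 996 lay at positions 400 to 500, with a median of 447. Their YY1 partners lay just before them, with a median of 414. YY1-alone summits on L1 formed 2 groups, 51.2% at positions 1 to 200, after the YY1 motif, and 38.5% at 400 to 500. For 867 of the 996 shared sites on the consensus (87.0%), the YY1 motif was present at the start of the element. Of the 996 sites, 316 (31.7%) also had a YY1 summit within 100 bp of that place, while 30 (3.01%) had an SP1 summit there. Of the 996 sites, 755 held the FOX motif, 47.2% of all shared sites that held it, and none held CTCF, GATA or AP-1.

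**Figure D5:**
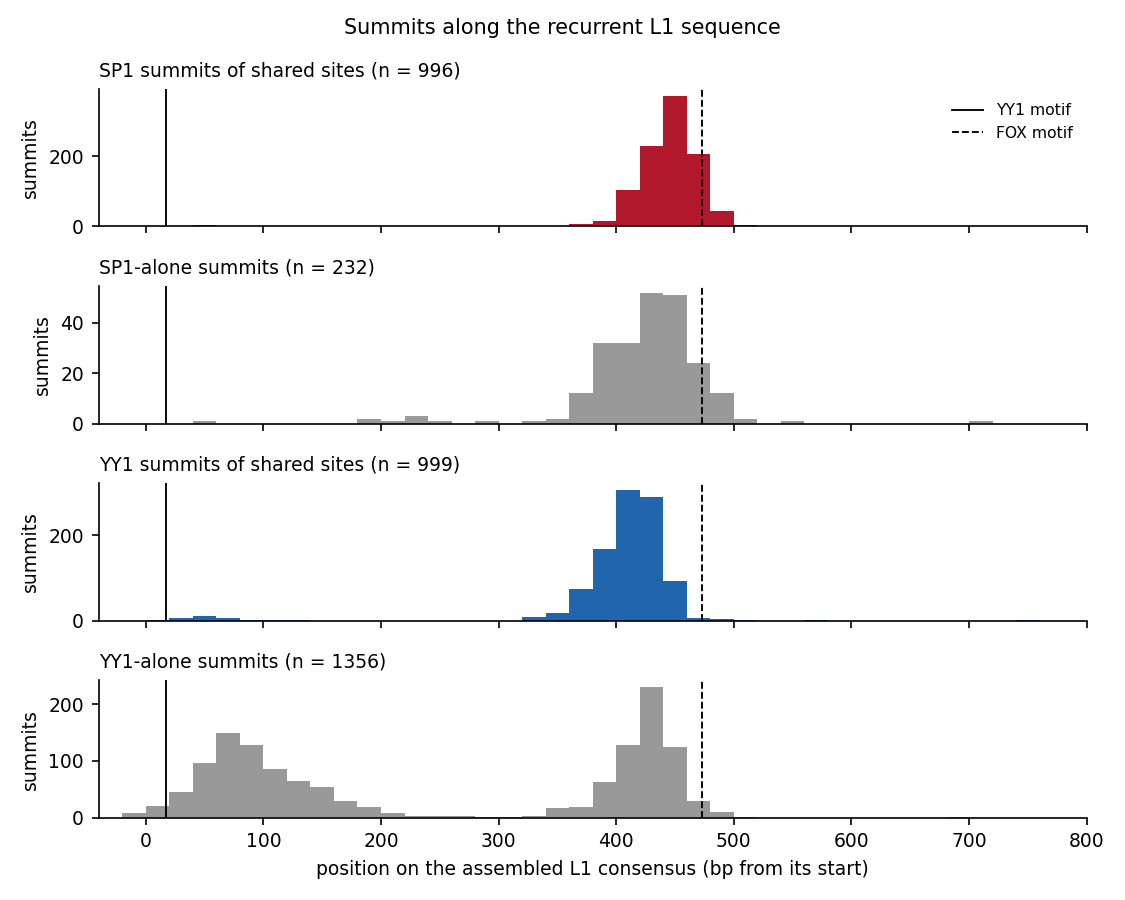
Number of summits (y axis, separate scales) by position on the assembled L1 consensus (x axis, bp, 20-bp bins), for SP1 and YY1 summits of shared sites and for SP1-alone and YY1-alone summits. Lines mark the YY1 motif at 17 and the FOX motif at 473; SP1 summits gather at a median of 447 and their YY1 partners at 414, while 51.2% of YY1-alone summits lie at 1 to 200.

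L1 sites were strong for YY1 and moderate for SP1, with medians of 52.0 and 22.6. They made up 10.8% of the highest of 5 bins of shared sites by YY1 score and 0.146% of the lowest. The genome held 6982 copies of the stretch from 400 to 500, of which 961 (13.8%) had a shared site. The consensus was itself built from windows of shared sites, so copies with such a site are nearer to it by construction, and the following shares are a description. Shared sites lay at 875 of 2485 copies with at least 95% identity (35.2%, 33.36 to 37.11), 3.77% of copies with 90 to 95% and 0.947% of those below 90%. Alike copies share reads that can be placed at more than 1 of them, and how the authors treated such reads is not given in the sources used here, so the part of read placement in these shares was not tested. Among the L1 sites 44.4% were intergenic and 32.6% in introns of protein-coding genes. A second recurrent family, a 150-bp sequence like the Alu repeat, was present at 3.96% of shared sites, 4.43% of SP1-alone, 4.44% of shared YY1 and 7.10% of YY1-alone peaks.

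The median distance to the nearest protein-coding 5′ end was 47.3 kb (quartiles 14.01 and 138.3 kb), against 53.7 kb for SP1-alone summits. Of the sites, 19.8% lay at 2 to 10 kb, 31.4% at 10 to 50 kb and 32.4% beyond 100 kb, and 55.8% had another shared site within 10 kb. The last share also counts other summits of the same SP1 peak. Introns of protein-coding genes held 51.4% (these make up 41.0% of distal bases), exons 4.79% (3.35% of bases), other genes 14.2% (16.2%) and intergenic sequence 29.6% (39.5%). The share of distal SP1 summits that met the rule was 24.2% on chromosome 19, the lowest, and 37.8% on chromosome 18, the highest. Per Mb, chromosome 6 held the most, 15.06, and the X chromosome the fewest, 6.947.

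Shared sites were more often near other 5′ ends than SP1-alone summits were. Within 500 bp of the 5′ end of any annotated transcript lay 8.37% of shared and 6.71% of SP1-alone summits (1.66 points, 1.26 to 2.07; two-sided Fisher exact test adjusted over 9 tests, p = 8.17e-16). With each list limited to its 16165 highest scores the difference was 1.53 points and did not pass. For lncRNA transcripts it was 3.16% against 2.27% and for alternative protein-coding transcripts 4.71% against 4.08%. These differences moved with the distance allowed to YY1: within 50 bp any 5′ end was 0.52 points higher and the protein-coding one 0.017 (not passing), and within 250 bp they were 3.895 and 2.275. Windows rich in CpG (100 bp either side of the summit with at least 55% GC and a CpG ratio of at least 0.6) came to 6.24% against 3.71% (2.53 points, 2.20 to 2.87, Fisher exact test, adjusted p = 2.22e-52). Median GC content was 43.8% against 40.3%. Intergenic sites were 1.65 points rarer and exonic ones 0.69 points more frequent than among SP1-alone summits. The intergenic order turned to 2.20 points more frequent, and the intronic difference from -0.46 (not passing) to -3.63 points, once 44 regions were left out in which the NRF1 or YY1 list skips runs of peak numbers. These regions held 2736 SP1-alone peaks (6.13%) and 43 peaks with shared sites, and a YY1 partner there can be missing from the list.

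ZNF608, which encodes a zinc finger protein (ENSG00000168916.16, chr5:124636913-124748807), was the nearest gene to 109 sites, with 41 inside it among 96 distal SP1 summits. ZNF703, a co-repressor gene, was nearest to 91, and NR2F2, the gene of the nuclear receptor COUP-TFII (ENSG00000185551.15), to 89. Most sites inside the ends of a gene were counted for ENSG00000285708, with 81, which overlaps FOXP1, the forkhead factor gene with 77 of its own, and for GMDS, an enzyme of fucose synthesis, with 78. Overlapping genes count the same sites. Distal SP1 summits inside these 3 genes numbered 205 for ENSG00000285708, 196 for FOXP1 and 177 for GMDS. Over all distal SP1 summits 33.1% met the rule. The counts were not adjusted for gene length or for the number of SP1 summits.

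Gene lists were described by whether each gene was the nearest to at least 1 shared site, which held for 44.7% of 19962 protein-coding genes. In the SP and KLF family, zinc finger factors that share GC-rich sites, it held for 21 of 27 genes (median 3 sites per gene, against 0 over all genes), led by KLF12 with 38, and KLF6 and KLF9 with 17 each. Of kidney development factors it held for 10 of 13, with GATA3, a GATA factor, at 32 sites and EYA1 at 20. Of neural factors and neurofilaments it held for 8 of 10, with POU3F2 and SOX2 at 15 each. Among the 16 immediate early genes, which respond to growth signals within minutes, 12 were nearest to a site, with IER5 at 15, MYC at 14 and JUN, a part of AP-1, at 13. Of the Hippo pathway, which controls organ size through YAP1 and the TEAD factors, it was 13 of 16, with YAP1 at 13 and AMOTL1 and TEAD1 at 12 each.

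The other lists covered regulators of loops, the cytoskeleton, imprinting and blood. Among genes of CTCF and cohesin 8 of 12 were nearest to a site, with NIPBL, the cohesin loader, at 8 and STAG1 and STAG2, cohesin subunits, at 4 each. Of the YY1 family it was 2 of 3: YY1 itself at 5, with 4 inside the gene, and ZFP42 at 1. Of actin cytoskeleton genes it was 14 of 18, and of imprinted genes 9 of 18, led by GNAS at 5. Blood cell markers, the marks of another cell type, came to 5 of 14, with PTPRC at 14 sites. No shared site lay inside PTPRC or within 50 kb of its 5′ end. Long stretches between genes give a gene more sites, and gene spacing was not adjusted for.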

How the data were processed

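The labels' protocols describe formaldehyde-fixed ChIP samples of HEK293T cells. The authors deposited 4 lists of peak summits, 1 per antibody, whose score the values show to be on a −log10 scale of significance; whether it holds a p-value or a q-value is not stated. Per the submitters' processing notes, cutadapt, Bowtie2, SAMtools 1.16.1, MACS3 and bedtools were used with hg38. The lists of SP1 and ZNF143 are named in the labels of the treated and the untreated samples alike, and those of YY1 and NRF1 were matched by antibody. Read depth is unknown from the lists, and scores and list lengths grow with it, so that scores were compared only within a list.

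Here, summits were compared with hg38 and GENCODE 44 in Python 3.11.15 with NumPy 2.4.6 and SciPy 1.17.1. Motifs had to lie wholly within 50 bp of 1 summit per peak. The motif scan was checked on simulated sequence, and the rule, the p-value adjustment and the Newcombe interval on known answers. Tests are named with their results. Recurrent sequences were assembled from the most frequent run of 24 bases and placed with BLAST+ 2.17.0 (expected value of at most 1e-08). The share of soft-masked repeat sequence was planned, but the reference used here carries no masking. The named sites were the 6 highest that could be printed, by the lower of their percentiles in the 2 lists, and the 2 highest with each of 4 motifs. The named genes were the 3 nearest to most sites, the 3 holding most and up to 3 per list (some of these are not reported here), and the sites next to each threshold were named too. The sites, motifs and gene lists were chosen with earlier results of these data known.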

Additional observations from a re-analysis of the deposited data

How the results depend on the processing

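Results were recomputed under the other settings that apply to each, 17 in all and 1 more that was chosen after seeing the data (leaving out windows on the L1 consensus). Of the recomputed values, 504 kept their direction and their side of the threshold, 34 reversed, 16 no longer passed, 9 newly passed, and 10 counts moved by over 1.5 times. The ratio of CTCF to flanks, and the lower YY1 motif share at shared than at YY1-alone YY1 summits, kept both under every setting that gives them. With equal numbers of top summits too few shared sites held the CTCF motif to decide its ratio. No paired analysis was possible because the lists give no value per sample, and for the same reason no replicate could be left out. With the top 50% of each list, shared sites numbered 14972, and with equal numbers of top summits 1358.

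Equal numbers, with fewer sites tested, left 8 motifs above and 0 below flanks (exact McNemar test with 20 motifs), 2 above and 1 below SP1-alone, and 5 above YY1-alone. CTCF was then 0.057 points above SP1-alone and -3.60 against YY1-alone, AP-1 -0.77, GC box -1.59 and E-box -0.14 against SP1-alone, GC box -4.70 and E-box -0.82 against YY1-alone. The YY1 ratio to flanks was 1.19, any 5′ end 1.53 points above SP1-alone (not passing), and upstream of CTCF were 33.33% of SP1 and 66.67% of YY1 summits, at only 3 sites with the motif. With the top 50%, 6 motifs were below SP1-alone, CTCF was -4.24, GC box -0.35 and E-box -0.014 against YY1-alone, AP-1 -1.54 and intergenic 1.97 against SP1-alone. Scores of at least 5 gave 7 motifs below SP1-alone, CTCF 0.22 against YY1-alone (not passing), AP-1 -0.58 and intergenic 0.34 against SP1-alone. The cause was not tested.

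Of differences from SP1-alone that were small at the outset, GATA turned to 0.25 (partner within 50 bp), 0.16 (over 10000 bp), 0.14 (no other summit within 500 bp), 0.24 (all summits), 0.039 (motif within 25 bp) and 0.14 (without L1). AP-1 turned to -0.022 (partner within 250 bp) and -0.19 (without skipped regions). Intron turned to 0.18 (none within 500 bp), 0.49 (all summits) and 0.16 (without L1), intergenic to 2.20 (without skipped regions), and the 5′ end of other transcripts to -0.017 (partner within 50 bp). FOX turned to -0.11 without L1. The YY1 ratio to flanks was 1.10 at 1000 bp, 1.00 with 1 mismatch and 1.23 without L1. Motifs within 25 bp gave 1 motif below SP1-alone. By any site within 50 kb, the YY1 family was -25.0 and imprinted genes -19.4 points against all genes. Depth limits what the lists can hold: a missing partner can be one below the authors' cutoff.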
